A study of Rattus norvegicus with 4 samples.

Results

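The secreted Wnt modulators described here are the secreted frizzled-related protein genes Sfrp1, Sfrp2, Sfrp4 and Frzb, together with Cthrc1, which encodes a secreted collagen triple helix repeat protein. They were found by their gene symbols, which took 10 probe sets of 31099 and 5 genes of 14218, measured in skeletal muscle of rats of the F344/DuCrlCrlj strain. The members were chosen by their signals on these same 4 arrays, so their levels are a description and support no claim about the list. The study used a rat model of intermittent claudication, leg pain on walking caused by reduced blood flow, and asked what contraction of the muscle does to it. There was 1 array for each of 4 groups: sham, ischemia, ischemia + ES (electrical stimulation that contracts the muscle through its nerve) and ischemia + exercise. The labels name neither the muscle nor the animals' age, nor the number of animals per array and any pooling, nor how long ES and exercise lasted. With no replicates there was no test, no difference below has a replicate check, and precision is limited by having 4 arrays.

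Secreted frizzled-related proteins carry a cysteine-rich domain like the one with which frizzled receptors bind Wnt proteins, and they are known to bind Wnts outside the cell, mostly as antagonists. Wnt proteins signal through frizzled receptors either to beta-catenin, which acts with TCF/LEF factors in the nucleus, or through branches that use small GTPases and calcium. Cthrc1 is secreted by fibroblasts after tissue injury, limits collagen deposition, and is known to favour the planar cell polarity branch. In muscle, Wnt signals act on satellite cells and on the interstitial fibroblasts that lay down matrix.

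A signal is the MAS5 value of a probe set on a linear scale. Signals under 30.1, the 50th percentile of all values on the 4 arrays, were set to that floor before ratios were taken, and a ratio against an array at the floor is a bound, written "at least". A gene was represented by its brightest probe set and counted as higher or lower past a 2-fold ratio. Of the 5 member genes, 4 lay above the floor on at least 1 array and were compared with the other genes, 10092 in all. Sfrp1, Sfrp4 and Cthrc1 were above it on all 4 arrays, Sfrp2 on 3, and Frzb on 0. The arrays had the same deposited trimmed mean of 150.1, and the share of probe sets past the floor was 49.3% to 51.1%. The skeletal muscle genes Acta1 (signals of 9908 to 12192) and Ckm (9059 to 10946) were bright on all 4 arrays.

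Sfrp2 encodes a frizzled-related protein of fibroblasts that is also known to assist procollagen processing. Its signal was 41.3 on sham, 163.8 on ischemia, 79.4 on ischemia + ES and 22.9 on ischemia + exercise. The ischemia array was the highest, the ES array stood between ischemia and sham, and the exercise array was under the floor. The other probe set of Sfrp2 gave signals of 8.67, 70.6, 24.3 and 1.78 in the same order of groups. It put the arrays in the same order as the brighter one but passed the floor on ischemia alone.

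A promoter sequence was held by RefSeq's table (build GRCr8) for 2 of the 5 members, Sfrp2 and Frzb, and that of Sfrp2 is shown because this member had the widest range over the arrays. The 250 bases before its start lie at chr2:171387286-171387535 on the plus strand. Capitals mark the octamer ATTTGCAT, 57 to 50 bases before the start, and CATAAAA, a run resembling the TBP motif at 52 to 46 bases that overlaps it.
Sfrp2: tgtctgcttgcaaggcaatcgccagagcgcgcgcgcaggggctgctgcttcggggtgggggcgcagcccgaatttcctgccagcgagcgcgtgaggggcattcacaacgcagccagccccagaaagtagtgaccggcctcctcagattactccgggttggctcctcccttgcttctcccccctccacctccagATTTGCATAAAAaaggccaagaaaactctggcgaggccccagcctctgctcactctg
The GC content of this stretch was 62.4%, above that of 79.8% of the 33469 promoters of the same length, and that of Frzb was 43.6%. ATTTGCAT was found on either strand in 1.56% of those promoters and CATAAAA in 4.16%, and both motifs were chosen after the Sfrp2 sequence had been read. CTTTGA, the core of the TCF/LEF motif, was not found in this window of Sfrp2 or Frzb, and 13.9% of all promoters held it. The same held for TGANTCA (AP-1, 6.34% of promoters), GTCTAGAC (SMAD, 0.173%), CATTCC (TEAD, 12.1%), GGGCGG (GC box, 30.5%) and TATAAA (the TBP motif, 12.9%), each searched on both strands.

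Cthrc1 had signals of 35.5 on sham, 133.1 on ischemia, 81.8 on ischemia + ES and 33.5 on ischemia + exercise, from its only probe set. Sham and exercise were both just above the floor, ischemia was the highest, and ES lay between them. Sfrp4, a frizzled-related gene known from bone and connective tissue, had signals of 307.4, 867.1, 321.2 and 307.8 in that order. Here the ischemia array alone stood high, and the other three differed by at most 1.04-fold. The other Sfrp4 probe set was under the floor on all 4 arrays (1.35 to 4.84).

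Sfrp1, another frizzled-related Wnt antagonist, spanned a narrower range, with signals of 38.8 on sham, 56.5 on ischemia, 48.1 on ischemia + ES and 36.8 on ischemia + exercise. The arrays stood in the same order as for Sfrp2, from ischemia down to exercise, but the highest was 1.54-fold above the lowest. The 2 other probe sets of Sfrp1 were under the floor on all arrays (0.662 to 17.9). Frzb, known for its part in cartilage and bone, was under the floor throughout, with signals of 29.3, 19.1, 17.6 and 21.5 on its brighter probe set and 13.4 to 18.0 on the other. Its sham signal lay just below the floor, and no ratio was taken for it. Sfrp5, the frizzled-related gene outside the set, had its lowest signal on ischemia: 62.6, 35.8, 60.3 and 55.8.

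**Figure D1:**
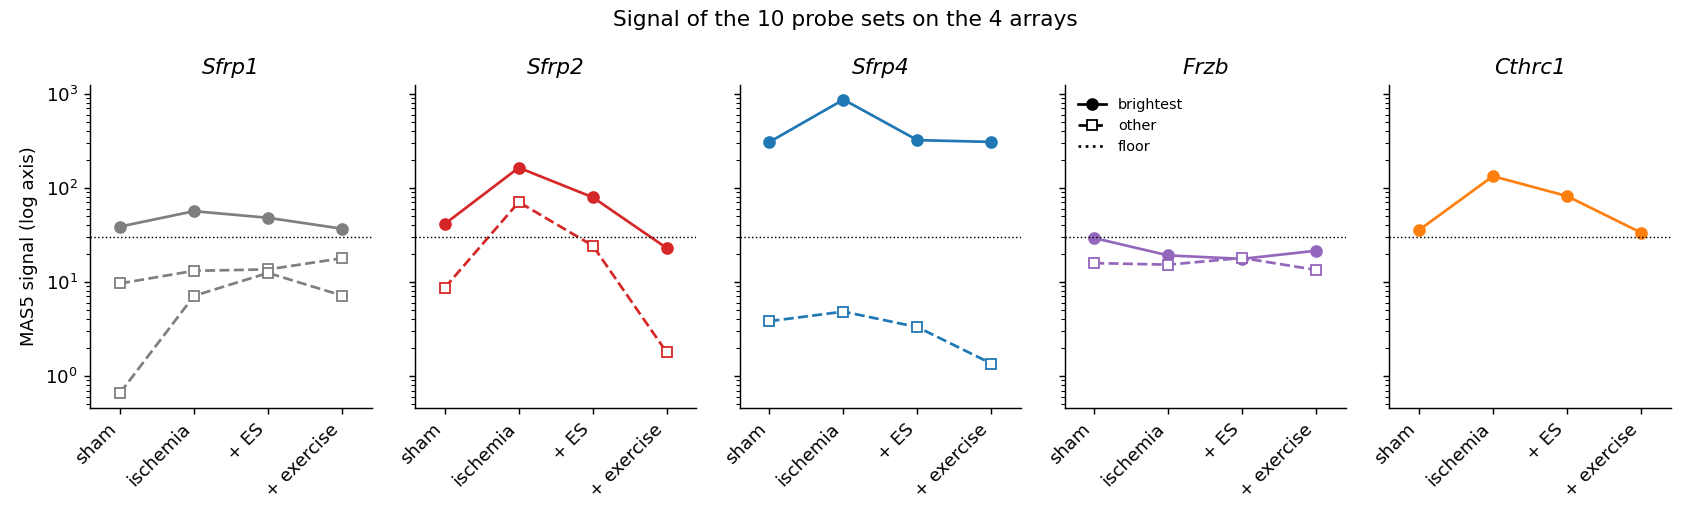
MAS5 signal (log axis) of each of the 10 probe sets on the 4 arrays, 1 panel per gene. Filled circles are the brightest probe set of a gene, open squares the others, and the dotted line the floor of 30.1. Sfrp2, Sfrp4 and Cthrc1 peak on the ischemia array, where their brightest probe sets reach 163.8, 867.1 and 133.1, while Frzb stays under the floor.

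The ischemia array was set against sham to ask what ischemic muscle expressed differently. Sfrp2 was 3.96-fold higher, a log2 ratio of 1.99, which placed it 4th from the top of 10092 genes. Cthrc1 was 3.75-fold higher (log2 ratio 1.91, 5th from the top) and Sfrp4 2.82-fold higher (16th). Sfrp1 was 1.46-fold higher, within 2-fold. Thus 3 of the 4 compared members were higher past 2-fold and 0 lower, while 0.783% of all genes were higher and 0.862% lower, and the members' median log2 ratio was 1.70 against 0.00 for all genes. These values chose the members, so nothing is read from that count. Among the 4046 genes whose highest signal lay within 2-fold of that of Cthrc1, 1.16% were higher past 2-fold, and among the 2181 near Sfrp4 0.459% were. Other settings end calls here: with a floor at the 70th percentile Sfrp2 and Cthrc1 had log2 ratios of 0.69 and 0.39, and the mean over all probe sets, one of which is at the floor, gave 0.75 for Sfrp4. In bulk muscle, more cells of a type and more RNA per cell cannot be told apart.

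The ES array was compared with ischemia because the study asked what stimulated muscle shares with exercised muscle. Sfrp4 was 2.70-fold lower with ES (log2 ratio -1.43, 15th from the bottom of 10092 genes) and Sfrp2 2.06-fold lower (-1.05, 73rd). Cthrc1 was 1.63-fold lower and Sfrp1 1.18-fold lower, both within 2-fold. So 2 of 4 compared members were lower and 0 higher, where 0.793% of all genes were lower and 2.28% higher. The call of Sfrp2 is the closest to the threshold: with 16 added to each signal in place of the floor its log2 ratio was -0.92, and with a floor at the 70th percentile -0.69. For Sfrp4, the mean over both probe sets gave -0.72.

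The exercise array was compared with the same ischemia array. Sfrp2 was at least 5.44-fold lower and Cthrc1 3.98-fold lower (log2 ratio -1.99, 5th from the bottom by floored ratios). Sfrp4 was 2.82-fold lower (-1.49, 14th) and Sfrp1 1.54-fold lower, within 2-fold. Here 3 of 4 compared members were lower past 2-fold and 0 higher, where 0.872% of all genes were lower and 1.14% higher. Since this comparison, the one with ES and the one with sham all hold the ischemia array, a high value on that 1 array enters all 3, and their ratios are not independent of each other. The settings that end a call were the floor at the 70th percentile (Sfrp2 -0.69, Cthrc1 -0.39) and the mean over probe sets for Sfrp4 (-0.75).

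The comparisons that leave out the ischemia array separate the members. With exercise against sham, Sfrp4 had a log2 ratio of 0.00, Cthrc1 was 1.06-fold and Sfrp1 1.05-fold lower, and Sfrp2 was at least 1.37-fold lower. None of the 4 passed 2-fold in either direction, while 0.446% of all genes did (0.258% higher, 0.188% lower). With ES against sham, Cthrc1 was 2.31-fold higher (log2 ratio 1.21), Sfrp2 1.92-fold, Sfrp1 1.24-fold and Sfrp4 1.04-fold higher. Cthrc1 alone passed 2-fold, where 3.78% of all genes were higher and 1.06% lower, and it did not with 16 added to each signal (0.93) or with a floor at the 70th percentile (0.00).

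ES and exercise were also compared directly. Sfrp2 was at least 2.63-fold higher with ES than with exercise and Cthrc1 2.44-fold higher, while Sfrp1 was 1.31-fold and Sfrp4 1.04-fold higher. Thus 2 of 4 compared members were higher past 2-fold and 0 lower, where 2.95% of all genes were higher and 1.1% lower (4.05% in either direction). Among the 4046 genes of like signal to Cthrc1, 4.15% were higher and 1.24% lower. Under other settings Sfrp2 had a log2 ratio of 0.70 with the mean over probe sets and 0.00 with the 70th percentile floor, and Cthrc1 0.98 with 16 added and 0.00 with that floor. The ES array also had the highest ratio of 3' over 5' actin signal, 5.94 against 3.81 (ischemia) to 4.38 (sham), a ratio that grows as RNA degrades. The same ratio for GAPDH was also highest there, 1.26 against 1.04 (ischemia) to 1.16. The part of RNA quality in this and the other comparisons with the ES array, that with ischemia included, was not tested.

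**Figure D2:**
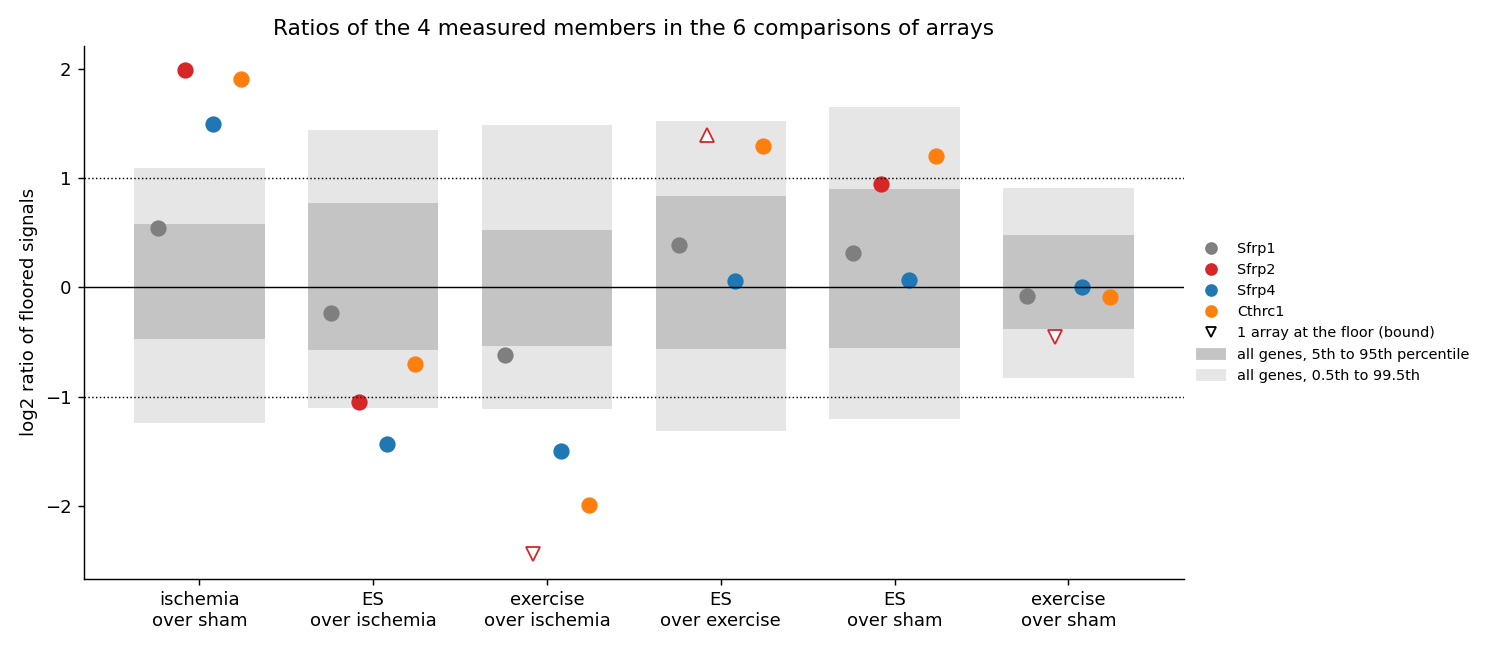
Log2 ratio of floored signals for the 4 compared members in 6 comparisons of arrays, with grey bars for the middle of all 10092 genes. Open triangles are bounds, with 1 array at the floor, and dotted lines mark 2-fold. Sfrp4 is at 0.06 with ES over sham and Cthrc1 at 1.21, while with exercise over sham Sfrp1, Sfrp4 and Cthrc1 lie between -0.08 and 0.00 and Sfrp2 has a bound at -0.46.

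Sfrp2 and Cthrc1 had each other among their nearest genes. Likeness was measured as the root mean square difference of floored log2 signals over the 4 arrays, each gene centred on its mean. Genes whose symbols start with LOC or RGD were left out. The gene nearest to Sfrp2 was Cthrc1 (0.19), followed by Col1a1 (0.23), Aldh1l2 (0.31), Col14a1 (0.34) and Pcolce (0.38). The genes nearest to Cthrc1 were Col1a1 (0.09), Sfrp2 (0.19), Aldh1l2 (0.19), Col14a1 (0.21) and Pcolce (0.21). Both lists thus held the same 4 genes beside the member itself. Col1a1 encodes a chain of type I collagen, Col14a1 a collagen of fibril surfaces, Pcolce an enhancer of procollagen cleavage, and Aldh1l2 a mitochondrial enzyme of folate metabolism. Col1a1 had signals of 1137 on sham, 3561 on ischemia, 2385 on ischemia + ES and 1000.4 on ischemia + exercise, with ES between ischemia and sham as for Cthrc1. Its other probe set gave 529.7, 1815, 1174 and 494.7, the same order. The other probe set of Col14a1 differed less between ischemia and sham, at a log2 ratio of 0.30.

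Sfrp4 had other neighbours: Ikbip (0.17), Tnc (0.17), Adra2a (0.22), Mybph (0.23) and C1qtnf4 (0.25). Tnc encodes tenascin C, a matrix protein of injured tissue and of tendon, and Mybph a myosin binding protein of muscle. Tnc had signals of 69.5 on sham, 215.3 on ischemia, 100.8 on ischemia + ES and 83.8 on ischemia + exercise, so the ischemia array alone stood high, as for Sfrp4. Adra2a and C1qtnf4 were above the floor on ischemia alone. From Sfrp4, Cthrc1 lay at a distance of 0.49 and Sfrp2 at 0.50, the 394th and 518th nearest of the compared genes. With 4 arrays such distances are a description, and genes of high signal on 1 array resemble each other by that alone.

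**Figure D3:**
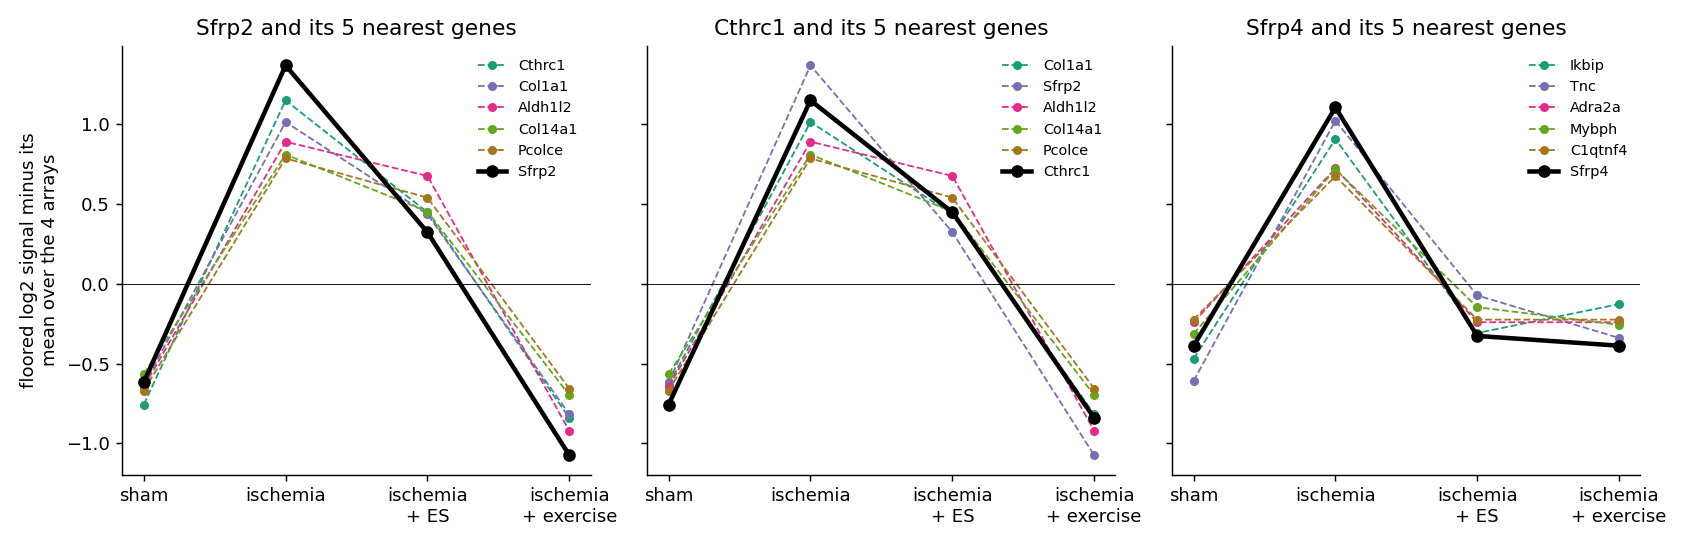
Floored log2 signal minus its mean over the 4 arrays for Sfrp2, Cthrc1 and Sfrp4 (black) and the 5 genes nearest to each (colours, dashed). The ES array lies above the mean for Sfrp2, Cthrc1 and their neighbours and below it for Sfrp4 and its neighbours.

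The rest of the Wnt pathway was read from 8 lists with 113 genes on the array, of which 84 were above the floor on at least 1 array. Of these, 1 was higher and 1 lower past 2-fold with ischemia against sham, 0 and 3 with ES against ischemia, and 1 and 1 with exercise against ischemia. Those shares, 2.38%, 3.57% and 2.38% in either direction, stand beside 1.64%, 3.07% and 2.01% of all genes. With ES against sham 4 were higher and 2 lower (7.14%, against 4.84% of all genes), with ES against exercise 2 and 2 (4.76% against 4.05%), and with exercise against sham 0 and 0 (0.446% of all genes). In the first 3 comparisons the median log2 ratios of the 84 genes were 0.04, 0.04 and 0.06, against 0.00, 0.05 and 0.00 for all genes.

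Among other secreted antagonists and enhancers, 6 of 10 genes were above the floor and Wif1 alone passed 2-fold. Wif1, which encodes a secreted protein that binds Wnts, had signals of 39.2 on sham, 89.4 on ischemia, 40.2 on ischemia + ES and 60.5 on ischemia + exercise. It was 2.28-fold higher with ischemia than sham and 2.22-fold lower with ES than ischemia, so the ischemia array was again the highest and the exercise array stood between. Dkk3, a secreted relative of the Dickkopf antagonists, had signals of 46.5, 72.5, 46.9 and 53.4, also highest on ischemia but within 2-fold. Rspo3, an enhancer of Wnt signalling, was above the floor on sham (43.9) and exercise (56.8) alone. Dkk2, Sost, Rspo1 and Ndp were under the floor on all 4 arrays.

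Of the Wnt ligands on the array, 5 of 13 were above the floor on at least 1 array. Wnt4, a ligand known from muscle and kidney, had signals of 181.5 on sham, 218.8 on ischemia, 81.4 on ischemia + ES and 221.6 on ischemia + exercise. ES was the lowest of the 4 arrays, 2.69-fold below ischemia, 2.72-fold below exercise and 2.23-fold below sham. Wnt9a, also a secreted ligand, stayed between 229.6 and 256.0. Wnt5a, known as a ligand of the non-canonical branches, was under the floor throughout (9.73 to 18.7), as were Wnt2, Wnt5b, Wnt7a, Wnt8b, Wnt10a, Wnt11 and Wnt16.

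Of the genes for Wnt secretion and for the proteoglycans that hold Wnts at the cell surface, all 8 on the array were above the floor. Sdc4, a heparan sulphate proteoglycan of the membrane, had signals of 555.8 on sham, 274.4 on ischemia, 273.7 on ischemia + ES and 560.7 on ischemia + exercise. It stood 2.03-fold lower with ischemia than sham and 2.04-fold higher with exercise than ischemia, with ES at the level of ischemia. Gpc3, a glypican, was 2.20-fold higher with ES than sham and 2.09-fold higher than with exercise, but under cyclic loess normalization the second ratio was 0.99 in log2. The other Gpc3 probe set was under the floor on all 4 arrays (2.72 to 5.31).

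Of the frizzled receptors and co-receptors, 12 of 17 genes were above the floor, and none passed 2-fold with ischemia against sham or with either treatment against ischemia. Fzd4, a frizzled receptor known from vessels, had signals of 255.0, 309.8, 256.1 and 256.4. Fzd6 was 2.24-fold higher with ES than sham (85.1 against 38.0). Of the cytoplasmic relay and destruction complex, 12 of 14 genes were above the floor. Frat2, an inhibitor of the kinase GSK3, had signals of 896.6 on sham, 1351 on ischemia, 599.9 on ischemia + ES and 763.3 on ischemia + exercise, 2.25-fold lower with ES than ischemia. Ctnnb1, which encodes beta-catenin, lay between 4118 and 5092.

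Of the nuclear factors, 13 of 14 were above the floor and none passed 2-fold in those 3 comparisons; Tle3, a corepressor, was at least 2.06-fold higher with ES than sham (0.97 in log2 under quantile normalization). Of the feedback and target genes, 13 of 18 were above the floor. Axin2, the feedback gene most used as a readout of beta-catenin, had signals of 44.7 on sham, 32.7 on ischemia, 26.3 on ischemia + ES and 28.5 on ischemia + exercise, near or under the floor, and its ratios stayed within 2-fold. Ccnd1, which encodes cyclin D1, was 2.01-fold lower with exercise than ischemia (109.2 against 219.7) and 2.39-fold higher with ES than exercise. Its first ratio fell short of 2-fold under quantile (-0.99 in log2) and loess (-0.98) normalization, and its other probe sets, above the floor on all 4 arrays, gave -0.69 and -0.38. For ES over exercise those probe sets gave 0.46 and 0.55 in log2, also within 2-fold. Cd44, a receptor for hyaluronan, was 2.18-fold higher with ES than sham, with its other probe set at 0.75 in log2 ratio. The target list's median log2 ratio was 0.21 with ischemia against sham, 0.02 with ES against ischemia (-0.07 under quantile normalization) and -0.12 with exercise against ischemia. In the polarity and calcium branches, 16 of 20 genes were above the floor and none passed 2-fold in any of the 6 comparisons.

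**Figure D4:**
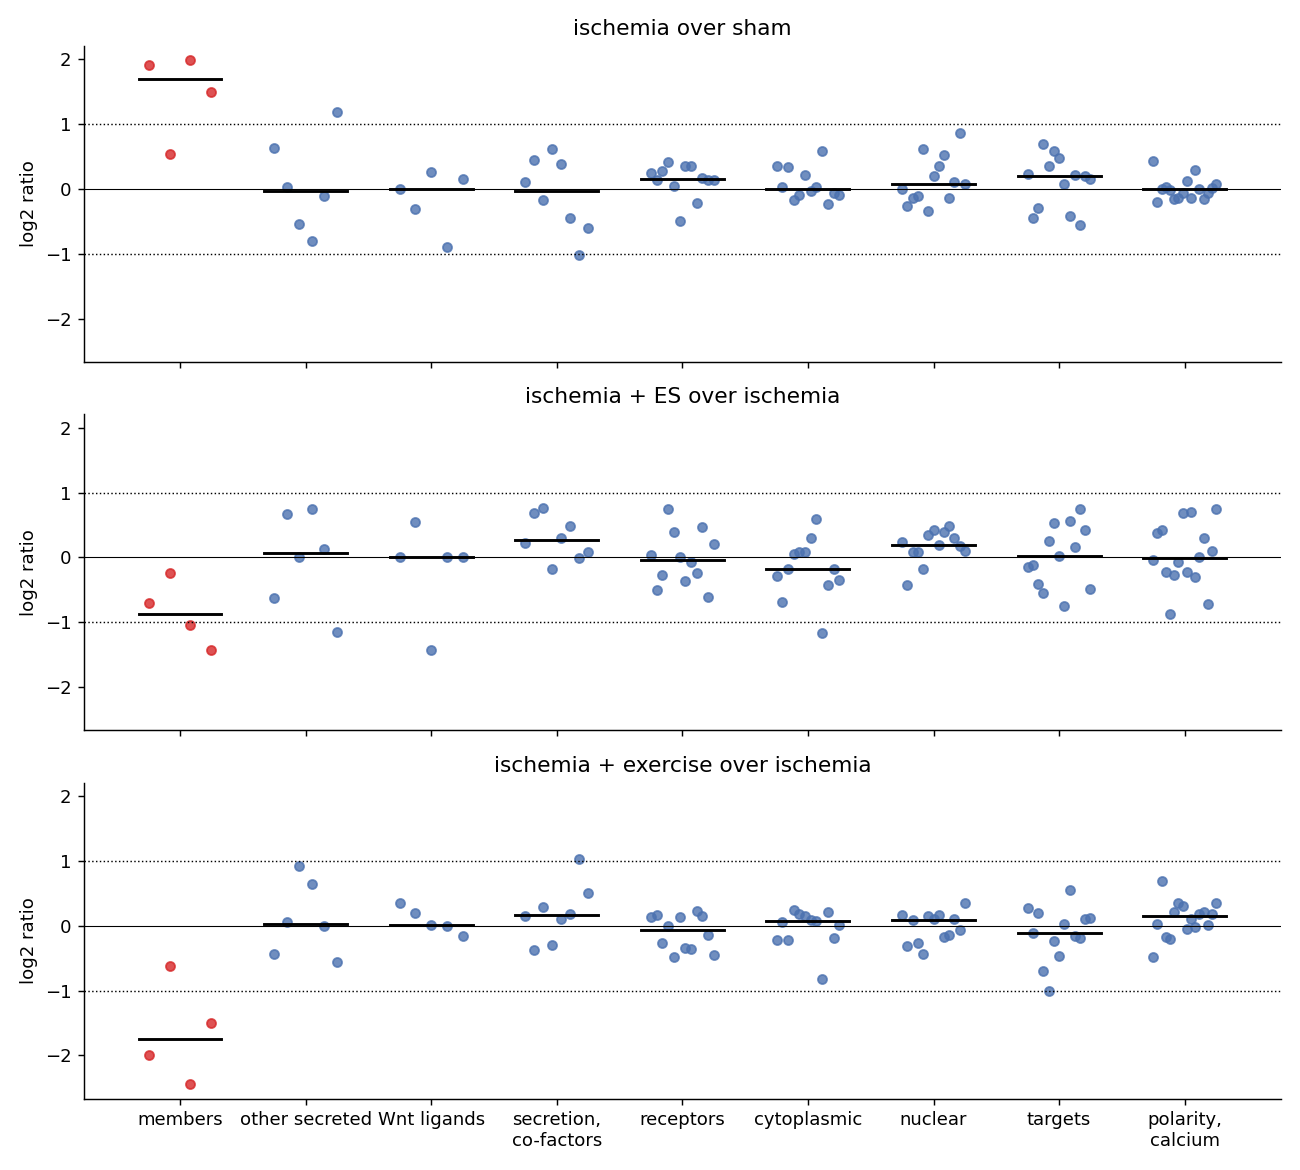
Log2 ratio of each compared gene of the secreted Wnt modulators (red) and of 8 other Wnt lists (blue) in 3 comparisons, with black bars for list medians and dotted lines at 2-fold. The members' medians are 1.70, -0.87 and -1.74, while the medians of the other lists lie between -0.18 and 0.26.

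Markers of the cells that could carry these transcripts also differed between the arrays. The 17 matrix genes above the floor had a summed signal of 14902 on sham, 30436 on ischemia, 26896 on ischemia + ES and 15116 on ischemia + exercise. Of them, 6 were higher past 2-fold with ischemia than sham, 5 lower with exercise than ischemia and 1 lower with ES than ischemia, and 6 were higher with ES than sham. Over all genes the shares in those directions were 0.783%, 0.872%, 0.793% and 3.78%. The matrix medians were 0.87, -0.83, -0.38 and 0.88 in the same order of comparisons. Fibroblast markers, 14 of 14 above the floor, had a narrower range of sums, 13268 to 16904, and Thy1 alone passed 2-fold. It was higher with ischemia than sham, lower with exercise than ischemia, and higher with ES than sham or exercise. The other probe set of Thy1 was under the floor on all 4 arrays (8.22 to 14.1). The fibroblast medians were 0.33, -0.23 and -0.06 for ischemia over sham, exercise over ischemia and ES over ischemia. Pdgfra, a defining marker of interstitial fibroblasts, had signals of 197.1 on sham, 324.3 on ischemia, 326.9 on ischemia + ES and 211.8 on ischemia + exercise, so ES stood at the level of ischemia.

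Tendon markers, 6 of 6 above the floor, had summed signals of 1410 on sham, 2273 on ischemia, 1215 on ischemia + ES and 2134 on ischemia + exercise. Their defining gene Tnmd had 137.5, 332.8, 107.7 and 194.1, highest on ischemia and lowest with ES. The list was mixed: Scx, a tendon transcription factor, had 362.6, 302.3, 216.3 and 535.5, lower on ischemia than sham and highest on exercise, and with exercise against ischemia 3 of the 6 genes had ratios above 1 and 3 below. Macrophage markers, 13 of 14 above the floor, summed to 1984, 4524, 5484 and 2023, and Cd68 had 32.4, 113.8, 135.1 and 28.8, with ES as high as ischemia. Adipocyte markers, 5 of 6 above the floor, summed to 2253, 2525, 4512 and 2809, highest with ES, and most of each sum was Fabp4 (1989, 2154, 4215 and 2218), a fatty acid binding protein gene. Their defining gene Adipoq was instead highest on exercise, at 123.6 against 31.8 to 42.7 on the others. Endothelial markers, 8 of 8 above the floor, had summed signals of 2265, 2224, 4579 and 2381, with ES alone high, and 5 of the 8 were higher past 2-fold with ES than ischemia, where 2.28% of all genes were. Myofibroblast genes, 8 of 8 above the floor, summed to 9778 to 10281, but most of each sum was the tropomyosin gene Tpm2 (8568 to 9201). Actg2, a smooth muscle actin gene of that list, had 142.1, 55.0, 145.1 and 59.3, 2.58-fold lower with ischemia than sham and 2.64-fold higher with ES than ischemia. It was the only 1 of the 8 genes past 2-fold there, where 0.862% and 2.28% of all genes were in those directions. The list medians were -0.05 and 0.21. With ischemia against sham, 3 of its genes had ratios above 1 and 4 below. Slow-fibre genes went the other way, with summed signals of 66333 on sham, 11603 on ischemia, 23214 on ischemia + ES and 76603 on ischemia + exercise. The part of these cell markers in the members' differences was not tested.

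**Figure D5:**
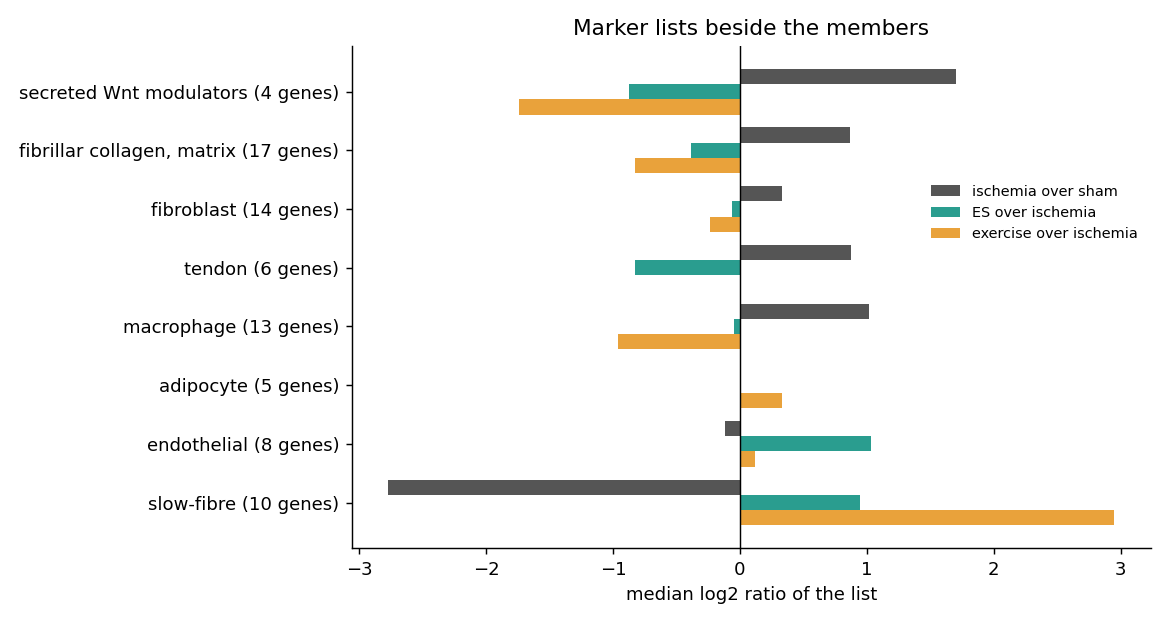
Median log2 ratio of the secreted Wnt modulators and of 7 marker lists in 3 comparisons, with the number of genes above the floor in brackets. The matrix list has medians of 0.87, -0.38 and -0.83, in the same directions as the members. The macrophage list has 1.02, -0.05 and -0.96, but for ES over ischemia its genes are split, 6 higher and 7 lower by any amount. Fibroblast medians are 0.33, -0.06 and -0.23, with 5 genes higher and 9 lower for ES over ischemia. Tendon medians are 0.87, -0.83 and -0.001, with 3 genes higher and 3 lower for exercise over ischemia. The endothelial and slow-fibre medians have signs opposite to those of the members.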

How the data were processed

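Total RNA of skeletal muscle was labelled with biotin and hybridised to single-colour oligonucleotide arrays, 1 per group. The authors deposited 1 linear intensity per probe set and array. The signals are MAS5 values, per the submitters' processing notes, which give no version, and the equal 2% trimmed means show that arrays were scaled before deposit, which hides differences in total mRNA. Dim MAS5 signals are noisy, and detection calls were not used here. Gene symbols came from a platform annotation of 2016, and probe sets with several symbols (436) were not used. The intensities were rescaled to 1 trimmed mean, floored, put on the log2 scale, and compared as ratios, with no test. Alternatives were quantile and cyclic loess normalization (limma 3.58.1), floors at the 30th and 70th percentile, 16 added in place of the floor, the mean of probe sets, leaving out probe sets open to cross-hybridization, and thresholds of 1.5-fold and 3-fold. The calculation was tested on simulated arrays in which only genes far above the floor were changed. That test did not cover signals near the floor, where Sfrp1, Sfrp2 and Cthrc1 lay on some arrays. The members, lists and settings were chosen with earlier results of these data known. Named genes were all members, Wnt and TGF-beta list genes past 2-fold (at most 4 a list and comparison), the 5 genes nearest to each member that spans 2-fold, and 5 fixed cell markers. Other genes named, such as Scx, Fabp4, Tpm2, Actg2, Thy1, Dkk3, Rspo3, Sfrp5, Axin2, Ctnnb1, Fzd4 and Tgfbi, were chosen after their values were seen.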

Additional observations from a re-analysis of the deposited data

How the results depend on the processing

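Of the 24 member ratios (4 genes, 6 comparisons), 11 passed 2-fold, and none took the opposite sign under any alternative run. Most alternatives could not show an opposite sign. A changed floor or an added constant cannot reverse a ratio, and leaving out probe sets open to cross-hybridization changed no member ratio. Only the normalizations and the mean of probe sets could have done so. Of 162 alternative values, those unchanged ones included, 15 were under 2-fold where the reported one was past it. The number of members past 2-fold, main value first, was 3 with ischemia over sham and 1 with the floor at the 70th percentile. With ES over ischemia it was 2, and 1 with that floor, with 16 added and with the mean of probe sets, and 0 at 3-fold. With exercise over ischemia it was 3 and 1 with that floor. With ES over exercise it was 2, 1 with 16 added and with the mean of probe sets, and 0 with that floor and at 3-fold. With ES over sham it was 1, 0 with that floor, with 16 added and at 3-fold, and 2 at 1.5-fold. The other 40 of 54 counts were within 1.5 times. Over all genes the low end of each range of counts came from the 3-fold threshold and the high end from the 1.5-fold threshold. With ischemia over sham, 11 to 499 were higher and 32 to 322 lower (79 and 87 reported). The ranges were 25 to 989 and 9 to 476 with ES over ischemia (230 and 80). They were 43 to 406 and 11 to 428 with exercise over ischemia (115 and 88). With ES over exercise they were 40 to 1057 and 27 to 464 (298 and 111). With ES over sham they were 57 to 1249 and 21 to 440 (381 and 107), and with exercise over sham 4 to 296 and 2 to 172 (26 and 19). The floor at the 70th percentile lies above Sfrp2 and Cthrc1 on all arrays but ischemia, and the second Sfrp4 probe set adds only floor values to a mean. Frzb had a log2 ratio of -0.61 with ischemia over sham when the floor was at the 30th percentile. No paired analysis was possible because each group had 1 array.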

Other observations

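TGF-beta signals are known to raise matrix genes in fibroblasts, and a list of their ligands, receptors, regulators and targets was read beside the members. Of 24 such genes on the array, 21 were above the floor. None passed 2-fold with ischemia against sham or with ES or exercise against ischemia, where 1.64%, 3.07% and 2.01% of all genes did. With so few genes, that count is near the share over all genes. The list's medians were 0.00, -0.25 and -0.05 in log2 ratio. Ccn2, a matricellular target gene, had signals of 1415 on sham, 958.1 on ischemia, 605.4 on ischemia + ES and 1760 on ischemia + exercise. It was lowest with ES, 2.91-fold below exercise and 2.34-fold below sham, an order unlike that of any member. Tgfbi, another gene of that list, had 578.4, 1038, 827.8 and 660.9 in the same order of groups. The ischemia array was the highest for Tgfbi, as for Sfrp4, but ES stood above sham by a log2 ratio of 0.52, where Sfrp4 had 0.06. All ratios of Tgfbi stayed within 2-fold. Of the 21 genes, 10 were higher and 10 lower by any amount with ischemia than sham. Inhba, which encodes an activin chain, was 2.13-fold lower with ES than exercise (its other probe set -0.59 in log2), and Smad6, an inhibitor of the pathway, 2.38-fold lower with ES than sham (its other probe set above the floor -0.29). Tgfb1 and Mstn were under the floor on all 4 arrays.

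A list of reported partners of the members was also read, mostly outside the Wnt pathway but with the ligand Wnt5a among them. Of its 8 genes on the array, 5 were above the floor and Wnt5a was not. None of the 5 passed 2-fold in any comparison, where 0.446% to 4.84% of all genes did. Fn1, which encodes fibronectin, had signals of 785.4 on sham, 1464 on ischemia, 951.0 on ischemia + ES and 844.9 on ischemia + exercise, highest on ischemia. Bmp1, the procollagen C-proteinase, had 69.5, 92.4, 112.7 and 73.0, highest with ES.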
